A study of Homo sapiens with 3 samples.

Results

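The 40 genes described here build and run the mitotic spindle, and they were measured in Molm13 cells treated with pyrvinium for 6 h. They were chosen by name, as a list of G2/M, spindle and kinetochore genes, and not by a rule on measured values. The choice was made with earlier results of these data known. They are 40 of the 25702 genes counted in each library, and all 40 passed the filter of at least 10 counts in at least 1 library that left 12879 genes for testing. Molm13 is a line of human acute myeloid leukemia cells with a FLT3 internal tandem duplication, and the labels describe the cells as asynchronous. Pyrvinium is an anthelmintic drug that was used here at 50 nM and at 100 nM, with DMSO as the vehicle control. In 1 field the labels leave out the prefix of the higher dose, and 100 nM was taken from the sample titles. Each condition is 1 library, so no difference has a replicate check, and each test compares the reads of a pair of libraries, not the conditions.

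Cells entering mitosis activate CDK1 with its cyclin partners, condense their chromosomes and attach them to spindle microtubules through the kinetochores. The spindle checkpoint holds the anaphase-promoting complex back until every chromosome is attached, and separase then cuts the rings that hold sister chromatids together. Most genes of this program are transcribed late in the cell cycle, under the MYB-MuvB complex, NF-Y and FOXM1, while the genes of the G1/S transition are transcribed earlier, under E2F. Their RNA is therefore abundant only in cells that cycle. In bulk RNA, fewer cells in G2 and mitosis and less RNA of these genes per cell cannot be told apart.

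The libraries held 23165771 counts with DMSO, 22677038 at 50 nM and 24075123 at 100 nM. Of 10 myeloid leukemia markers, 9 passed the filter and KIT did not, with 3, 2 and 2 counts. The summed counts of the 10 markers were 30556 with DMSO, 31321 at 50 nM and 34989 at 100 nM. FLT3, with 6304, 9012 and 11181 counts, had the highest log2 fold change of them at 100 nM, 0.77, and SPI1, a myeloid transcription factor with 2981, 2667 and 2491 counts, the lowest, -0.32. Of 5 lymphocyte markers 1 passed, with summed counts of 37, 28 and 21. Of 5 epithelial, stromal, endothelial and erythroid markers 2 passed, with summed counts of 157, 179 and 200. The sums hide a marker that stood apart at 50 nM. Of the 12 markers that passed in all, 1 was at least 2-fold higher at 50 nM than with DMSO, at a log2 fold change of 5.08. At 100 nM against 50 nM, 1 was at least 2-fold lower, at -5.14. The part of these marker differences in the values below was not tested.

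Promoter sequence was available for 33 of the 40 genes in RefSeq windows on GRCh38.p14, which run from 250 bases before to 50 bases after an annotated start. The windows were searched on both strands for the cell cycle genes homology region (CHR; TTTGAA or TTCGAA), which the MuvB complex is known to bind, and for CCAAT, which NF-Y binds. The 200 bases before the start are shown for the 3 of the 33 genes with the lowest and the 3 with the highest value at 100 nM, and for TOP2A, the gene with the highest level. Capitals mark CHR and CCAAT on either strand, so that ATTGG is CCAAT and TTCAAA is a CHR on the opposite strand.
PTTG1 promoter, chr5:160421655-160421854, plus strand: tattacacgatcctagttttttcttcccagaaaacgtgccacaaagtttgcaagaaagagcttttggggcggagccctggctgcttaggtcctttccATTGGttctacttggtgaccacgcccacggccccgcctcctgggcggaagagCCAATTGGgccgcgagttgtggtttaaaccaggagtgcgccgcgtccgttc
ANLN promoter, chr7:36389662-36389861, plus strand: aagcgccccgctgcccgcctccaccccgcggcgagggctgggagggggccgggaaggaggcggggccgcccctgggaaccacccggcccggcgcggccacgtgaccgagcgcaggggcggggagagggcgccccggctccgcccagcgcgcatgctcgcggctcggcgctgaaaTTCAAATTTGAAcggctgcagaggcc
CCNA2 promoter, chr4:121823884-121824083, minus strand: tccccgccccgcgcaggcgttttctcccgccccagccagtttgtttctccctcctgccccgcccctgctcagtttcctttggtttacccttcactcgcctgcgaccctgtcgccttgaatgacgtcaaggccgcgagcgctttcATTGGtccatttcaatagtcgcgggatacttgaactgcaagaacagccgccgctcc
HMMR promoter, chr5:163460432-163460631, plus strand: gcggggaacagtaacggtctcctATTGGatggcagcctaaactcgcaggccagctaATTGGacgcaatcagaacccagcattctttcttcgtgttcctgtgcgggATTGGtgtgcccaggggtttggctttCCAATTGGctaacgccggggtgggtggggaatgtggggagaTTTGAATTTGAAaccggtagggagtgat
ESPL1 promoter, chr12:53268099-53268298, plus strand: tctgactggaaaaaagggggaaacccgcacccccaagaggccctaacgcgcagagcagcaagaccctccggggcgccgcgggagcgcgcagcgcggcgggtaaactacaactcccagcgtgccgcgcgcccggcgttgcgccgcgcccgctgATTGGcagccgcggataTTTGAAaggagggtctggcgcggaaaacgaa
KIF4A promoter, chrX:70289904-70290103, plus strand: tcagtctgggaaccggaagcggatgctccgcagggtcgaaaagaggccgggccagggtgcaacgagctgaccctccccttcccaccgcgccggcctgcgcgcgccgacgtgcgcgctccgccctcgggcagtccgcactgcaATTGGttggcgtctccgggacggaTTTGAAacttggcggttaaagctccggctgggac
TOP2A promoter, chr17:40417897-40418096, minus strand: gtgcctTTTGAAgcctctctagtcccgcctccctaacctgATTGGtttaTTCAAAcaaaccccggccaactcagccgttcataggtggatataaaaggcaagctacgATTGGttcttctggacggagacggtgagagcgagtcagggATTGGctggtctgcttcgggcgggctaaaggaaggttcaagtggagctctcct
PTTG1, ANLN and CCNA2 had the low values and HMMR, ESPL1 and KIF4A the high values. These genes were picked by their values, so the motifs seen in them are no test of a relation between motif and value, and the split over all 33 genes is given below.

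A gene was counted where any of its windows held the word, and 6 of the 33 genes had more than 1 window. A CHR was found in 26 of the 33 genes (78.8%), against 19.5% of the 27305 genes with a window. Over the 9705 tested genes with a window, 15.6% held a CHR, 43.5% held CCAAT and 6.54% held both. CCAAT was found in 27 of the 33 genes (81.8%), against 39.7% of all genes with a window. Both were found in 22 genes (66.7%), against 7.85%. The median position of the CHR was -28 from the start and that of CCAAT was -73, over the first window of each gene. The E2F word (TTT, 2 bases that are each G or C, then CGC), was found in 2 of the 33 genes, CDK1 and CENPA (6.06%), which lies between 3.99% of all genes with a window and 6.92% of the 9705 tested genes with a window. Of 30 G1/S genes with a window, 20 held the E2F word (66.7%) and 4 held a CHR (13.3%). TTCGAA reads the same on both strands, the words CCAAT and ATTGG can share bases, and a match is only a description of the letters in the window. The median log2 fold change at 100 nM against DMSO was -0.0013 over the 26 genes with TTTGAA or TTCGAA and -0.04 over the 7 genes with neither. Other forms of the CHR were not searched, so the 7 genes, among them PTTG1 and CCNA2, are not shown to lack one. Both groups spanned 0, from -0.21 to 0.23 with either word and from -0.28 to 0.15 with neither. Of the 22 genes with both motifs, 11 were below DMSO, with a median of -0.0013 and a range from -0.15 to 0.23. Of the 11 genes without both, 7 were below DMSO, with a median of -0.04.

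The mitosis and spindle genes were well counted in every library and differed little between them. Raw counts per gene ran from 369, for CDC25C at 50 nM, to 19777, for TOP2A at 100 nM. The level, given as RPKM, that is reads scaled to library size and to kilobases of counted exon length, ran in the DMSO library from 9.03 for ESPL1 to 143 for TOP2A, with a median of 45.5. The reads of the 40 genes made up 0.672% of all counts in the DMSO library, with a 95% Wilson interval from 0.669% to 0.676%. The share was 0.643% at 50 nM, with 0.640% to 0.646%, and 0.664% at 100 nM, with 0.661% to 0.667%. It was lowest at 50 nM, and the 3 intervals, which cover counting error only, did not overlap. The summed counts differed from DMSO by -0.06 on the log2 scale at 50 nM and by -0.02 at 100 nM.

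**Figure D1:**
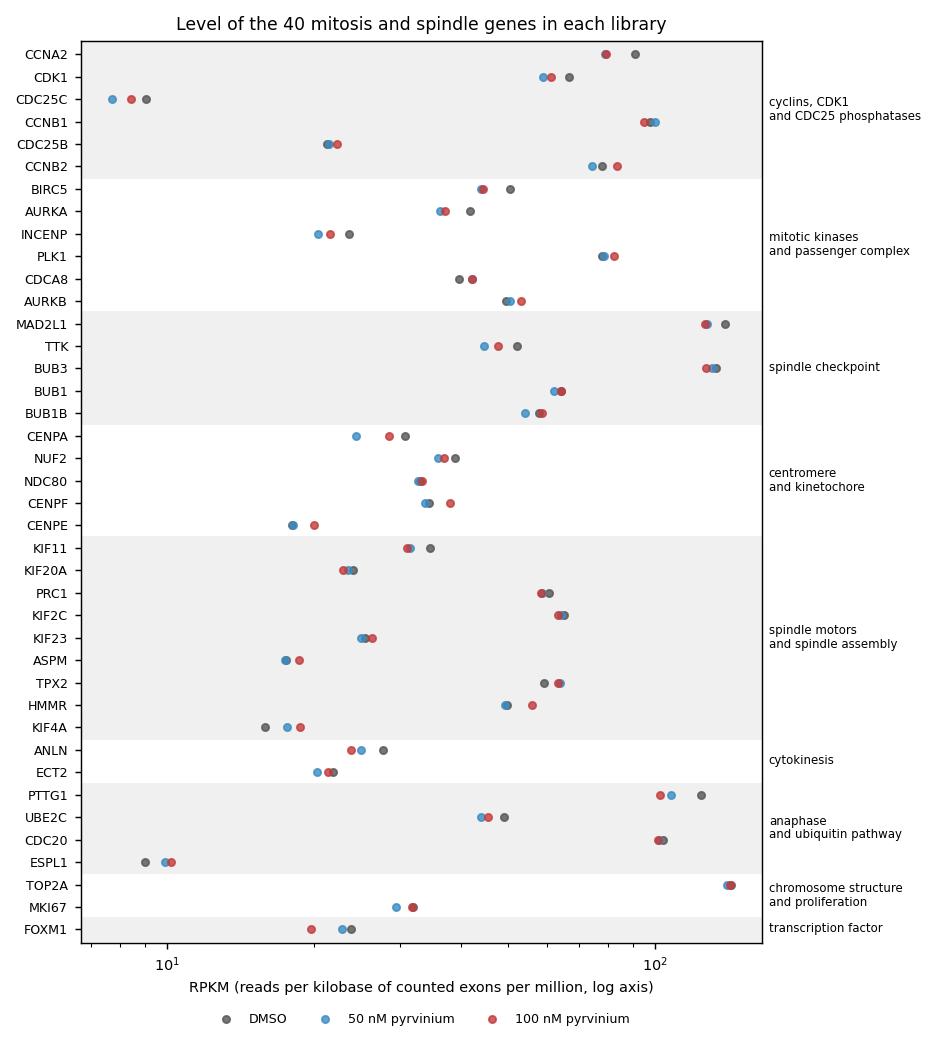
Level of each of the 40 genes in RPKM (log axis) in the DMSO (grey), 50 nM (blue) and 100 nM (red) libraries, 1 point per library, grouped by role. The levels of the genes spread from 9.03 to 143 RPKM with DMSO, while the 3 points of a gene lie close together.

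A gene was called where its adjusted p in the exact binomial test (Benjamini-Hochberg, over all 12879 genes) did not exceed 0.05 and the change reached 2-fold or, as a second rule, 1.2-fold. Between 100 nM and DMSO, 0 of the 40 genes were called at 2-fold, against 2.20% of all genes tested. At 1.2-fold, 2 were lower, PTTG1 and FOXM1, against 10.9% of all genes, and 0 were higher, against 12.5%. The 95% counting intervals (Clopper-Pearson) of all 40 genes lay between 0.771-fold and 1.25-fold. Of the intervals, 13 lay below no change (32.5%), 10 above it (25%) and 17 spanned it. These shares were near those of the 9979 genes whose mean count reached 100, with 30.6% below and 27.1% above. The median log2 fold change was -0.04, beside -0.0023 over all genes tested and -0.02 over the 9979 well-counted genes. With no fold limit, the same test called 12 of the 40 genes lower and 9 higher, where all genes gave 22.0% lower and 21.1% higher. All genes here include those that reached only 10 counts, while each of the 40 had at least 369, so the 2 sets are not matched in depth.

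Between 50 nM and DMSO, 0 of the 40 genes were called at 2-fold, against 0.955% of all genes tested. At 1.2-fold, CENPA alone was lower, against 5.32% of all genes, and 0 were higher, against 6.05%. Of the 40 genes, 31 had a lower value than with DMSO (77.5%) and 9 a higher value, where 51.3% of the 9979 genes had a lower value. The intervals of 17 genes lay below no change (42.5%) and those of 4 above it (10%), where the 9979 genes gave 22.2% and 21.7%. The median log2 fold change was -0.05, and all intervals lay between 0.723-fold and 1.18-fold. Between 100 nM and 50 nM, 0 were called at 2-fold, against 0.497% of all genes, and 0 were called at 1.2-fold in either direction, against 1.84% lower and 2.64% higher. In that comparison 28 genes had a higher value at 100 nM (70%) and 12 a lower value, with a median of 0.04, where 48.2% of the 9979 genes had a higher value. The 3 comparisons share libraries, so their values are not independent. Over all 3 comparisons, 37 of the 40 genes were never called at 1.2-fold.

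These calls rest on counting error alone. When edgeR's exact test was given a coefficient of variation between cultures of 0.1, 0.2 or 0.4, 0 of the 40 genes reached 0.05 in any comparison, by adjusted p or by unadjusted p. The lowest unadjusted p of edgeR's exact test at 0.1 was 0.180 at 100 nM, for PTTG1, and 0.126 at 50 nM, for CENPA. The assumed spread widens the error by construction, so this test could not decide changes as small as these. At 0.1 and 1.2-fold, 244 of all 12879 genes were called at 100 nM, 36 at 50 nM and 16 between the doses.

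**Figure D2:**
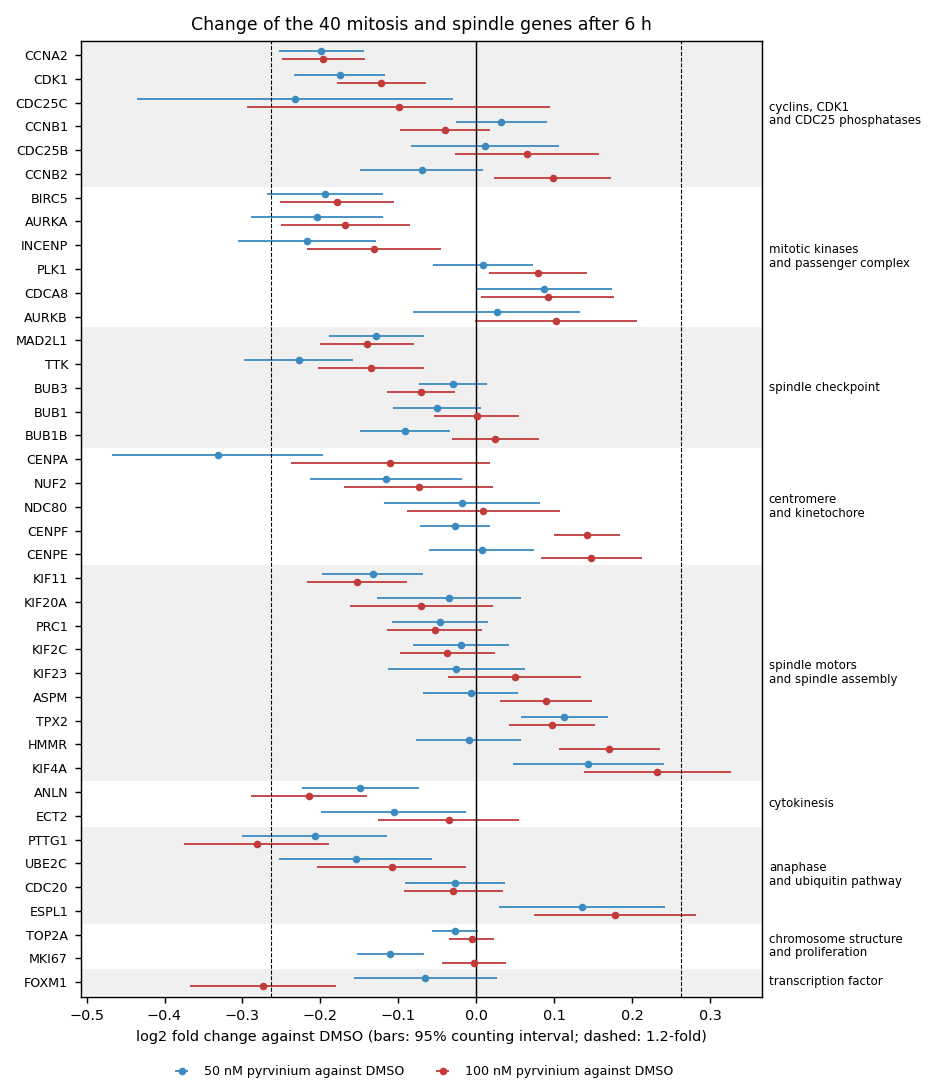
Log2 fold change of each gene at 50 nM (blue) and 100 nM (red) against DMSO, with 95% counting intervals as bars and dashed lines at 1.2-fold, grouped by role. At 100 nM the values run from -0.28 for PTTG1 to 0.23 for KIF4A, and at 50 nM the value of CENPA, -0.33, is the lowest.

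Among the cyclins and their kinase, CCNA2, which encodes the cyclin of S phase and G2, had the lowest value at 100 nM. CCNA2 stood at 90.9 RPKM with DMSO, 79.2 at 50 nM and 79.3 at 100 nM. Both treated libraries were below DMSO by the same amount, -0.20 on the log2 scale, with an interval from -0.25 to -0.14. CDK1, the kinase that drives entry into mitosis, had 66.7, 59.1 and 61.3 RPKM in the order DMSO, 50 nM and 100 nM. Its log2 fold change was -0.12 at 100 nM (-0.18 to -0.06) and -0.18 at 50 nM (-0.23 to -0.12), short of 1.2-fold at both doses. The mitotic cyclins did not share this. CCNB1 had 4738, 4730 and 4794 counts, and its intervals against DMSO spanned no change at both doses. CCNB2 had 77.9, 74.2 and 83.4 RPKM, lowest at 50 nM and highest at 100 nM. CDC25B and CDC25C, phosphatases that activate CDK1, had log2 fold changes of 0.06 and -0.10 at 100 nM, and both intervals spanned no change. CDC25C had the lowest counts of the list, 444, 369 and 431, and the widest interval at 50 nM, from -0.44 to -0.03.

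The mitotic kinases split into genes below and genes above DMSO. AURKA, the kinase of the centrosome and spindle pole, had 41.8, 36.3 and 37.2 RPKM, or -0.17 on the log2 scale at 100 nM (-0.25 to -0.09) and -0.20 at 50 nM. PLK1, the polo-like kinase of mitotic entry and exit, had 78.0, 78.5 and 82.4 RPKM and a log2 fold change of 0.08 at 100 nM (0.02 to 0.14). The 4 genes of the chromosomal passenger complex, which corrects wrong attachments at the centromere, divided in the same way. BIRC5, or survivin, whose exons overlap a gene on the opposite strand, had 50.4, 44.0 and 44.5 RPKM, with -0.18 at 100 nM and -0.19 at 50 nM. INCENP, the scaffold of the complex, had 23.7, 20.4 and 21.6 RPKM, with -0.13 and -0.22. The kinase AURKB and CDCA8, or borealin, were slightly higher than DMSO in both treated libraries. AURKB had 49.6, 50.5 and 53.3 RPKM, with intervals that spanned no change, and CDCA8 had 39.7, 42.1 and 42.3 RPKM, with a log2 fold change of 0.09 at both doses. None of the 6 genes was called at 1.2-fold in any comparison.

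Of the 5 spindle checkpoint genes, all had a value below DMSO at 50 nM, with 3 intervals below no change. TTK, the kinase that starts checkpoint signaling at the kinetochore, had 52.3, 44.6 and 47.6 RPKM. Its log2 fold change was -0.23 at 50 nM (-0.30 to -0.16) and -0.14 at 100 nM (-0.20 to -0.07). MAD2L1, the inhibitor that binds CDC20, had 139, 128 and 127 RPKM, and was the second gene of the list by level. Its value was -0.13 at 50 nM and -0.14 at 100 nM. BUB1B, the checkpoint component BubR1, had 57.8, 54.2 and 58.7 RPKM, so that it was below DMSO at 50 nM and level with it at 100 nM. BUB1, the kinase that recruits other checkpoint proteins, had 64.2 RPKM with DMSO, 62.0 at 50 nM and 64.2 at 100 nM. BUB3, their partner at the kinetochore, had 134, 131 and 127 RPKM, with an interval at 100 nM from -0.11 to -0.03.

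CENPA, the histone H3 variant that marks the centromere (hg19 chromosome 2, 27008882 to 27017457), gave the only call of the list at 50 nM. CENPA had 1021 counts with DMSO, 792 at 50 nM and 984 at 100 nM. The 50 nM library was low and the 100 nM library was close to DMSO. The log2 fold change of CENPA was -0.33 at 50 nM (-0.47 to -0.20), with an adjusted p of 1.43e-05 in the exact binomial test with Benjamini-Hochberg adjustment. At 100 nM it was -0.11 (-0.24 to 0.02), with an adjusted p of 0.166 in the same exact test. The kinetochore proteins CENPE and CENPF, which are long coiled-coil proteins, showed another order. CENPF had 8206, 7864 and 9420 counts. Its log2 fold change was 0.14 at 100 nM (0.10 to 0.18) and -0.03 at 50 nM, where the interval ran from -0.07 to 0.02. CENPE, a plus-end motor of the kinetochore, had 3606, 3539 and 4155 counts. The values on the log2 scale were 0.15 at 100 nM (0.08 to 0.21) and 0.01 at 50 nM (-0.06 to 0.07). For both, the 100 nM library stood above the other libraries, below the 1.2-fold limit. NDC80 and NUF2, subunits of the complex that grips the microtubule, had log2 fold changes of 0.01 and -0.07 at 100 nM, and both intervals spanned no change.

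Among the spindle motors and assembly factors, KIF4A, a chromokinesin of the central spindle (chromosome X, 69509879 to 69640774), had the highest value of the list at 100 nM. KIF4A had 1661 counts with DMSO, 1792 at 50 nM and 2030 at 100 nM. Each step up in dose had the higher value, but the interval of 100 nM against 50 nM spanned no change (-0.0038 to 0.18). The log2 fold change was 0.23 at 100 nM (0.14 to 0.33), with an adjusted p of 6.67e-06 in the exact binomial test with Benjamini-Hochberg adjustment, and 0.14 at 50 nM (0.05 to 0.24). It stayed short of 1.2-fold. HMMR, a microtubule-binding protein of the spindle pole, had 3614, 3506 and 4232 counts, and its log2 fold change was 0.17 at 100 nM (0.11 to 0.24) and -0.01 at 50 nM (-0.08 to 0.06). ASPM, another pole protein, had 17.6, 17.5 and 18.7 RPKM, again with the 100 nM library above the other libraries. TPX2, the activator of AURKA on the spindle, had 59.1, 64.0 and 63.3 RPKM, with 0.10 at 100 nM and 0.11 at 50 nM. KIF11, the plus-end motor that separates the spindle poles, went the other way, with 34.6, 31.5 and 31.1 RPKM and log2 fold changes of -0.15 at 100 nM (-0.22 to -0.09) and -0.13 at 50 nM (-0.20 to -0.07). The remaining 4 genes of this role were nearly level. KIF2C, which depolymerizes microtubules, had 4341, 4181 and 4401 counts. PRC1, the bundler of the central spindle, had 60.6, 58.7 and 58.4 RPKM. KIF20A and KIF23, the motors of the central spindle, had 1939, 1848 and 1921 counts and 2135, 2048 and 2298 counts. The intervals of these 4 genes against DMSO spanned no change at both doses.

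ANLN, which encodes anillin of the cleavage furrow, had 3064 counts with DMSO, 2699 at 50 nM and 2747 at 100 nM. Both treated libraries were below DMSO. The log2 fold change of ANLN was -0.21 at 100 nM (-0.29 to -0.14) and -0.15 at 50 nM (-0.22 to -0.07). ECT2, the exchange factor that turns on RhoA at the furrow, had 21.9, 20.3 and 21.4 RPKM and an interval at 100 nM that spanned no change.

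The anaphase genes held the lowest value of the list at 100 nM and a value near its upper end. PTTG1, which encodes securin, the inhibitor of separase (chromosome 5, 159848865 to 159855746), had 2052 counts with DMSO, 1736 at 50 nM and 1756 at 100 nM. Scaled by library size and length, these counts are 124, 108 and 102 RPKM, so that both treated libraries stood below DMSO. The log2 fold change of PTTG1 was -0.28 at 100 nM (-0.37 to -0.19), with an adjusted p of 1.70e-08 in the exact binomial test with Benjamini-Hochberg adjustment. At 50 nM it was -0.21 (-0.30 to -0.11), short of 1.2-fold. The near-identical copies PTTG2 and PTTG3P had at most 6 counts in any library. ESPL1, which encodes separase itself, had 1386, 1487 and 1631 counts. Both treated libraries stood above DMSO, with log2 fold changes of 0.18 at 100 nM (0.07 to 0.28) and 0.14 at 50 nM (0.03 to 0.24). CDC20, the activator of the anaphase-promoting complex, was level, with 104, 102 and 102 RPKM. UBE2C, the ubiquitin-conjugating enzyme of that complex, had 49.1, 44.1 and 45.5 RPKM, with -0.11 at 100 nM (-0.20 to -0.01) and -0.15 at 50 nM (-0.25 to -0.06).

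The gene with the highest level differed little between libraries. TOP2A, the topoisomerase that untangles sister chromatids, had 19091, 18298 and 19777 counts, and its log2 fold change was -0.01 at 100 nM (-0.03 to 0.02) and -0.03 at 50 nM (-0.06 to 0.00). MKI67, the Ki-67 proliferation marker that coats mitotic chromosomes, had 9236, 8354 and 9589 counts. MKI67 was level with DMSO at 100 nM, at -0.0029 (-0.04 to 0.04), and below it at 50 nM, at -0.11 (-0.15 to -0.07).

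FOXM1, the forkhead factor that activates G2/M genes (chromosome 12, 2966849 to 2986303), was the other gene called lower at 100 nM. FOXM1 had 2005 counts with DMSO, 1871 at 50 nM and 1726 at 100 nM. The 100 nM library stood below both others. The log2 fold change was -0.27 at 100 nM (-0.37 to -0.18), with an adjusted p of 6.66e-08 in the exact binomial test with Benjamini-Hochberg adjustment, and -0.07 at 50 nM (-0.16 to 0.03). Between 100 nM and 50 nM it was -0.21 (-0.30 to -0.11). Of its counted exons, 779 bases (21.5%) overlap a gene on the opposite strand that had 109, 124 and 181 counts. The sources used here do not give the strand setting of the counting, so reads of that overlap cannot be assigned with certainty. In all, the counted exons of 9 of the 40 genes overlap another gene, in 8 cases on the opposite strand. The longest overlap was in BIRC5, where 1285 bases (47.6%) are shared with a gene that had 2, 7 and 3 counts. CCNA2 shares 254 bases (9.08%) with EXOSC9, which had 1750, 1398 and 1388 counts. The values of these genes carry the same uncertainty about strand.

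A linear dose trend over the 3 libraries, fitted across all genes with edgeR's quasi-likelihood test on 1 residual degree of freedom, gave 4 of the 40 genes (10%) an adjusted p within 0.05 with no fold limit, against 20.4% of all genes tested. They were PTTG1, FOXM1, KIF4A and ANLN, with adjusted p of 0.0129, 0.0178, 0.0357 and 0.0370 in that order from edgeR. Of these, PTTG1 and FOXM1 also reached 1.2-fold.

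The order of the 3 libraries was described next, with no test. In 21 of the 40 genes (52.5%) the 50 nM library had the lowest scaled value, where 19.8% of the 9979 genes had this order. The other G2/M genes showed it as well, in 21 of 43 (48.8%). MKI67, CENPA, BUB1B, CCNB2, TTK and INCENP were among the 21 of the list. The order was counted however small the difference was. For CCNB2 the interval of 50 nM against DMSO spanned no change (-0.15 to 0.0082). For INCENP the interval of 100 nM against 50 nM did so (-0.0033 to 0.18). The value was lower with each dose in 10 genes (25%), against 31.5% of the 9979 genes. It was higher with each dose in 7 genes (17.5%), against 28.4% of the 9979 genes, and these were CDC25B, PLK1, AURKB, CDCA8, CENPE, KIF4A and ESPL1. A single library at each dose cannot tell a low value at 50 nM from the spread between libraries.

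The values moved weakly with the counted length of the transcript and with the level. The 7 genes with over 5000 bases of counted exons had a median log2 fold change of 0.09 at 100 nM, and 4 of them were above DMSO. The 33 shorter genes had a median of -0.05, and 12 were above DMSO. Over the 9979 genes, the medians were 0.04 for 2015 long genes and -0.03 for 7964 shorter genes. Spearman's rho between log2 fold change and length was 0.29 over the 40 genes and 0.14 over the 9979 genes. With the RPKM in the DMSO library in place of length, rho was -0.23 over the 40 genes and -0.17 over the 9979 genes. These are descriptions across genes that share the same libraries. The part of length or level in the values of CENPE, CENPF, ASPM, ESPL1 and PTTG1 was not tested.

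Other genes of the cell cycle were set beside the list, as counts called at 1.2-fold between 100 nM and DMSO, where 10.9% of all genes tested were lower and 12.5% higher. Of 43 other G2/M genes tested, 5 were lower (11.6%), near that share, and 1 was higher (2.33%), with a median log2 fold change of -0.09. With no fold limit, 34 of the 43 had a value below DMSO (79.1%), against 52.9% of the 9979 genes. The intervals of 21 lay below no change (48.8%) and those of 5 above it (11.6%), where the 9979 genes gave 30.6% and 27.1%. The lowest was PSRC1, a spindle protein, at -0.51 (461, 317 and 337 counts), and the highest was G2E3, a ubiquitin ligase, at 0.31 (1483, 1584 and 1911 counts). Of 24 inner centromere and outer kinetochore subunits, 7 were lower (29.2%) and 1 was higher (4.17%), with a median of -0.19. ZWILCH, which brings dynein to the kinetochore, was lowest at -0.50 (2797, 2143 and 2056 counts), and CENPH, an inner centromere subunit, was highest at 0.29 (1490, 1757 and 1901 counts). Of the 5 centromere and kinetochore genes in the list of 40, 0 were called at 100 nM, but so few genes cannot set the lists apart. The difference between the lists was not tested.

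Of 16 genes of the anaphase-promoting complex and its regulators, 1 was lower (6.25%) and 1 was higher (6.25%), with a median of 0.05. All genes tested gave 10.9% lower and 12.5% higher. FBXO5, or EMI1, the inhibitor of the complex, had 2530, 1860 and 1982 counts and a log2 fold change of -0.41. ANAPC16, a small subunit, had 1747, 2345 and 2769 counts and 0.61. Of 19 condensin and cohesin genes, 1 was lower (5.26%) and 4 were higher (21.1%). CDCA5, or sororin, was lowest at -0.43 and the cohesin loader NIPBL was highest at 0.44. A further list of 15 genes joined components of the DREAM and MYB-MuvB complexes with the NF-Y subunits NFYA, NFYB and NFYC. Of these 15, 3 were lower (20%, against 10.9% of all genes) and 0 higher (against 12.5%), with a median of -0.14. NFYB, a subunit of the CCAAT-binding factor, was the lowest of these at -0.42 (1316, 954 and 1021 counts). RBL2, the pocket protein p130, was the highest at 0.25 (3265, 3582 and 4032 counts), short of 1.2-fold. In lists of 15 to 19 genes a few calls set the share, and the difference from all genes was not tested.

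Most G1/S genes were called lower. Of 36 tested, 25 were called lower at 1.2-fold at 100 nM (69.4%, against 10.9% of all genes) and 0 higher (against 12.5%), with a median log2 fold change of -0.36. At 50 nM, 15 were lower (41.7%, against 5.32% of all genes), with a median of -0.21. The value was lower with each dose in 30 of the 36 genes (83.3%), against 31.5% of the 9979 genes. CCNE2, a cyclin E gene, was lowest at -0.76, with 3068, 2086 and 1890 counts. CCND2, a D-type cyclin, was highest at 0.01. With an assumed coefficient of variation of 0.1, 3 of the 25 calls were left, and 0 with 0.2 or 0.4. Of 13 cell cycle inhibitors, 8 passed the filter, and 2 of these were called higher (25%, against 12.5% of all genes) and 0 lower. CDKN1A, the CDK inhibitor p21, had 1809, 2085 and 2557 counts and a log2 fold change of 0.44 (0.35 to 0.53). GADD45B was the lowest of them at -0.11, with an interval that spanned no change.

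**Figure D3:**
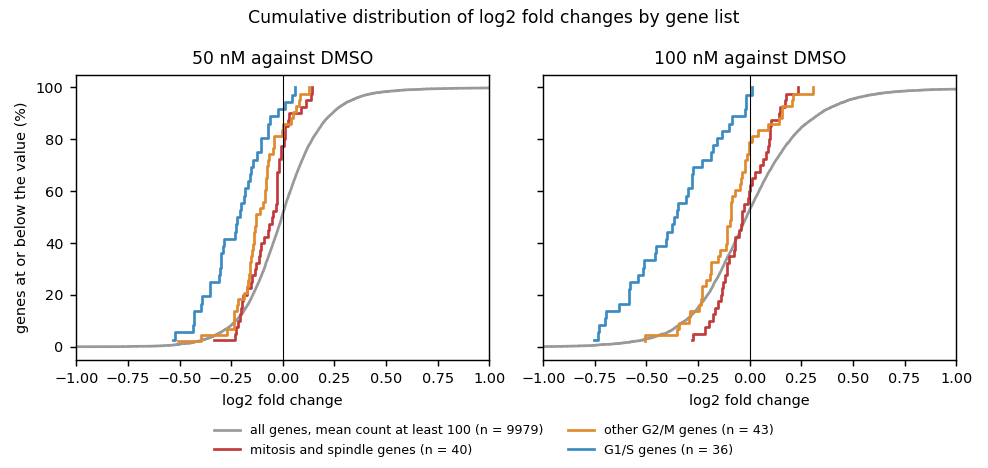
Cumulative share of genes, in percent, at or below each log2 fold change at 50 nM (left) and 100 nM (right) against DMSO, for the 9979 genes whose mean count reached 100 (grey), the mitosis and spindle genes (red), other G2/M genes (orange) and G1/S genes (blue). At 100 nM the median of the mitosis and spindle genes is -0.04 and that of the G1/S genes is -0.36.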

How the data were processed

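RNA of Molm13 cells was sequenced in 3 libraries, 1 per condition, built with a strand-specific kit. The authors aligned the reads to hg19 and deposited raw counts per gene with the counted exon lengths, not normalized. Whether counting used the strand is not given in the sources used here. The authors' EBSeq table, which holds posterior probabilities, fold changes and condition means, was not used. Of 25702 Entrez identifiers, 23696 were matched to a symbol in the RefSeq table of GRCh38.p14. Gene coordinates are those of the deposited files, in hg19, and promoter windows are those of RefSeq on GRCh38.p14.

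Library sizes were scaled with TMM in edgeR 4.0.16 (R 4.3.3). Genes had to reach 10 counts in some library, which 12879 did, and each pair of libraries was tested by an exact, two-sided binomial test (scipy 1.17.1) and Benjamini-Hochberg adjustment over all of them, at an adjusted p of at most 0.05. For log2 fold changes, 0.5 was added to each count. Intervals are 95% Clopper-Pearson intervals and hold counting error only, and 3 counts are 1.25e-05% to 1.32e-05% of a library. RPKM was computed from the counts, the scaled library sizes and the counted lengths. DESeq2 1.42.0 gave size factors only, since its test needs replicates.

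The members, the other gene lists, the tests and the alternatives were chosen with earlier results of these data known. The genes named are all 40 members and, of each other list, the lowest and the highest at 100 nM among genes with at least 100 counts with DMSO; KIT was named as the marker that did not pass. The motif of E2F was added after values were seen. The alternatives were other scalings (total counts, size factors of DESeq2, and TMM after leaving out mitochondrial genes), a filter of 50 counts and none, 5 counts added, fold limits of 1.1 and 1.5, assumed coefficients of variation and a dose trend. The procedure was tested on simulated data.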

Additional observations from a re-analysis of the deposited data

How the results depend on the processing

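No paired analysis was possible because each condition has 1 library, and for the same reason no replicate could be left out. Other scalings moved a pair of libraries by at most 0.0050 on the log2 scale. They changed no call of the 40 genes, but with total counts CDC20 (0.0025) and PSRC1 (0.0018) turned from just below to just above no change between 100 nM and 50 nM. The calls depended on the fold limit and on the assumed spread. At 1.1-fold, 8 of the 40 genes were lower and 5 higher at 100 nM, where 4869 of the 12879 genes tested passed in either direction. At 50 nM, 10 were lower and 1 higher, where 2954 of the 12879 passed. Between the doses, 1 was lower and 5 higher, where 1519 of the 12879 passed. At 1.5-fold, and with an assumed coefficient of variation of 0.1, 0.2 or 0.4, 0 were called lower at 100 nM or at 50 nM. Over all genes, given in the order 100 nM, 50 nM and between the doses, 3020, 1464 and 577 genes passed at 1.2-fold in either direction. The same counts were 4869, 2954 and 1519 at 1.1-fold and 864, 332 and 143 at 1.5-fold. They were 244, 36 and 16 with a coefficient of 0.1, 12, 0 and 4 with 0.2, and 0 in each with 0.4. At 2-fold, 283, 123 and 64 genes passed, and 146, 45 and 14 did so with a filter of 50 counts. With a coefficient of 0.1 the counts at 2-fold were 137, 27 and 15, with 0.2 they were 12, 0 and 4, and with 0.4 they were 0 in each. The dose trend gave 179 genes at 2-fold. Fewer genes entered the test under the stricter filter, and the assumed spread widens the error by construction. Depth limited the genes with few counts, such as CDC25C (444 with DMSO and 369 at 50 nM), and the spread between cultures is unknown.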
